A study of Homo sapiens with 12 samples.

Results

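The comparison described here is ipatasertib alone against vehicle in MDA-MB-468, an established human cell line from a basal, triple-negative breast carcinoma. Its members are all genes of the 3 ipatasertib libraries and the 3 DMSO libraries, 6 of the 12 libraries of the study. Poly(A) RNA was sequenced from cells given DMSO, ipatasertib, tazemetostat or the combination, with 3 libraries per group (A, B and C). Ipatasertib inhibits the kinase AKT in its ATP site, and tazemetostat inhibits EZH2, the methyltransferase of the Polycomb complex PRC2. Per the labels, cells were kept in DMSO or tazemetostat from day -5 and replated before treatment. On day 0 the medium was changed to one with 2% serum and the drug under study, and cells were harvested at 24 h, with each drug at 5 µM. The DMSO and ipatasertib groups thus share the vehicle phase, the low-serum medium and the collection time, and differ in the drug of the last day. All libraries come from this single line, which is generally known to carry an amplified EGFR gene. Whether A, B and C are cultures of their own is not said in the labels, and the p-values reflect only the scatter among libraries, which may be technical. In RNA from bulk cells, fewer cells of a kind and less RNA per cell cannot be told apart.

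AKT is activated downstream of growth factor receptors, when PI3K makes the lipid PIP3 at the membrane. Active AKT phosphorylates FOXO transcription factors, which keeps them out of the nucleus, and it relieves the brake that the TSC complex puts on mTORC1, the kinase complex that drives protein, lipid and nucleotide synthesis. Inhibition of the pathway is known to raise the expression of receptors and adaptors that act upstream of it, and it acts on proteins, so the RNA level of AKT itself is no readout of the drug.

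Reads in genes numbered 22682755 to 28746965 per DMSO library and 18926477 to 25468348 per ipatasertib library, so that 3 counts, the floor used here, correspond to 0.106 to 0.16 CPM. CPM (counts scaled to the TMM-adjusted library size) compare a gene between libraries, not one gene with another. Library A stood apart in both groups: the chi-square per degree of freedom over genes was 2.35 (DMSO) and 3.4 (ipatasertib) between B and C, and 4.18 to 9.24 between A and either of them. Reads assigned to no gene made up 19.85% ± 1.43 of all counted reads with DMSO and 23.25% ± 1.01 with ipatasertib (SD, n = 3, exact two-sided permutation p = 0.1, the smallest p that 3 against 3 libraries allow). This share moved with the drug against DMSO, and also for the combination (24.34% to 26.22%) against tazemetostat (19.79% to 22.97%). Between ipatasertib (22.26% to 24.27%) and tazemetostat the libraries overlapped. The part of this share in the results below was not tested. The libraries carried the line's markers: EPCAM was at 510 to 569 CPM and KRT8 at 1565 to 1711 CPM with DMSO, ESR1 at 1.26 to 2.09 CPM, and PGR had no read in any of the 6 libraries. Of 8 fibroblast markers 3 were tested and 1 fell: COL1A1 (9.61 to 11.6 CPM with DMSO, 5.05 to 5.36 with ipatasertib) and FAP made up most of a summed level of 10.8 to 12.5 and 6.19 to 6.78 CPM, and DCN, LUM and THY1 were at 0. Of 8 leukocyte markers 3 were tested and none was called; CD14 carried most of the sum of 80.3 to 86.9 and 78.2 to 101 CPM, while CD3E had a mean of 0.0118 CPM with DMSO and 0.0263 CPM with ipatasertib. Of 8 endothelial markers 4 were tested, 2 rose and 1 fell; KDR (19.9 to 20 and 28.5 to 29.9 CPM) carried most of the sum of 25.1 to 26 and 32.4 to 34.3 CPM, and EMCN was at 0. The part of these cell types in the results was not tested.

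By edgeR's quasi-likelihood test with Benjamini-Hochberg adjustment at 0.05, 47.1% of 14571 tested genes were called, 24% higher and 23.1% lower with ipatasertib. The median log2 fold change of all tested genes was 0.004, and among called genes the median size was 0.428, so most calls are modest shifts. A call with a log2 fold change of at least 1 was reached by 3.29% of tested genes on the higher side and 1.43% on the lower side. Counts of list members below are to be read against these shares, since a list at 24% higher and 23.1% lower does not stand apart from the transcriptome.

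**Figure D1:**
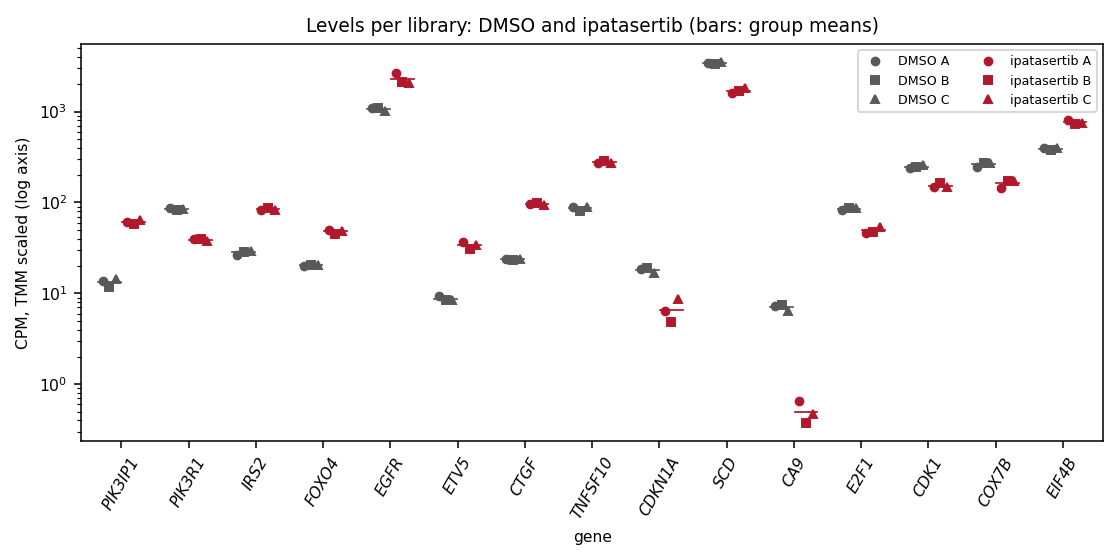
Levels of 15 genes in each DMSO (grey) and ipatasertib (red) library, in TMM-scaled CPM on a log axis. Symbols mark libraries A, B and C and horizontal bars the group means. The genes shown were picked among called genes. In each of them all ipatasertib libraries lie on 1 side of all DMSO libraries, for example CA9 at 0.374 to 0.653 against 6.45 to 7.54 CPM. The same holds for 29.8% of all tested genes on the higher side and 29.2% on the lower side.

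Upstream of AKT, the adaptors that link receptors to PI3K rose. IRS1, which docks PI3K at the insulin and IGF1 receptors, was at 10.7, 9.9 and 10.3 CPM with DMSO (libraries A, B, C) and at 19.1, 17.1 and 17.5 CPM with ipatasertib (log2 fold change 0.79 ± 0.11 SE, edgeR adjusted p = 3.31e-06). GAB2, a docking protein for several receptors, was at 96, 94 and 96.4 CPM and then at 213, 174 and 188 CPM (edgeR adjusted p = 9.97e-09). IRS2 went from 26.6, 28.8 and 29.6 to 82.9, 86.8 and 82.3 CPM, and GAB1 rose by 0.57 ± 0.11 on the log2 scale. IRS4, a relative of both with low RNA levels, was at 0.39, 0.136 and 0.185 CPM and then at 2.09, 1.12 and 0.789 CPM (2.41 ± 0.43), the highest log2 fold change of the pathway list. That value is imprecise, since the DMSO libraries held 19 IRS4 counts together and DMSO library B lay at its floor of 3 counts. All ipatasertib libraries lay above all DMSO libraries for these 5 adaptors, as they did for 29.8% of all tested genes (and below them for 29.2%).

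The subunits of PI3K did not share 1 direction. The catalytic subunit genes PIK3CA (log2 fold change 0.39 ± 0.10) and PIK3CB (0.55 ± 0.10) rose, and PIK3CD was not called (0.51 ± 0.26, edgeR adjusted p = 0.121). PIK3R1, which encodes the regulatory subunit p85-alpha that stabilizes and restrains the catalytic subunit, was at 86.3, 82.9 and 83.8 CPM with DMSO and at 39.7, 39.6 and 38 CPM with ipatasertib (-1.11 ± 0.07, edgeR adjusted p = 5.1e-11), the lowest log2 fold change of the 53 tested pathway genes. Of the other regulatory subunits, PIK3R3 fell by 0.39 ± 0.06 on the log2 scale and PIK3R2 rose (0.20 ± 0.08, edgeR adjusted p = 0.037), the latter a call lost in 6 of 20 other settings. Among negative regulators, PIK3IP1, a membrane protein that binds and restrains PI3K, was at 13.7, 11.8 and 14.5 CPM and then at 61.1, 58.4 and 64.4 CPM. INPP4B, a phosphatase of the PI3K lipid products, was at 9.19, 8.68 and 8.89 CPM and then at 23, 18.5 and 19.1 CPM (1.18 ± 0.10, edgeR adjusted p = 5.48e-09). PHLPP1, a phosphatase that dephosphorylates AKT, rose as well (0.37 ± 0.08). Not all went up: PHLPP2 was not called (-0.16 ± 0.09, edgeR adjusted p = 0.156) and TRIB3 fell (-0.22 ± 0.06).

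Of the kinase itself, AKT1 RNA fell from 180, 187 and 186 to 147, 139 and 156 CPM (log2 fold change -0.32 ± 0.07), and AKT2, the gene of another AKT kinase, at 152 to 157 and 148 to 158 CPM, gave overlapping libraries (edgeR adjusted p = 0.978). SGK1, a kinase related to AKT that shares part of its substrates, rose from 63.8 to 65.9 CPM to 124 to 129 CPM (0.96 ± 0.07, edgeR adjusted p = 1.5e-10). Of the FOXO factors that AKT holds out of the nucleus, FOXO4 was at 19.8, 20.4 and 20.7 CPM and then at 50.4, 45.4 and 48.7 CPM (1.25 ± 0.11, edgeR adjusted p = 6.11e-09). FOXO1 rose by 0.59 ± 0.10, and FOXO3 was at 164 to 173 and 174 to 188 CPM (edgeR adjusted p = 0.149).

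Toward mTOR, some genes of the TSC and mTOR complexes rose. TSC1 (log2 fold change 0.73 ± 0.09) and TSC2 (0.40 ± 0.08), the brake on mTORC1, rose while RHEB, the GTPase they act on, fell (-0.34 ± 0.09). MTOR (0.30 ± 0.07), RPTOR of mTORC1 (0.33 ± 0.08) and RICTOR of mTORC2 (0.63 ± 0.09) rose. The other tested genes of these complexes, MLST8, MAPKAP1, DEPTOR, AKT1S1, PRR5 and PRR5L, had log2 fold changes of -0.20 to 0.05 and were not called. Downstream, EIF4E, the cap-binding factor, was at 42.5 to 43.8 CPM with DMSO and 27.8 to 29.9 CPM with ipatasertib (-0.57 ± 0.08, edgeR adjusted p = 6.51e-06), and RPS6KB2, an S6 kinase, fell by 0.40 ± 0.08 on the log2 scale. DDIT4, a stress-induced inhibitor of mTORC1, fell by 0.53 ± 0.07, and SESN3 was at 14.3 to 15.6 and 12.3 to 13.5 CPM (edgeR adjusted p = 0.0541). In all, 23 of the 53 tested pathway genes rose and 9 fell, with a median log2 fold change of 0.066. Of these 32 calls, 5 were lost in 2 to 6 of 20 other settings, those of PIK3R2, PDPK1, INPP5D, GATSL3 and EIF4EBP1.

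**Figure D2:**
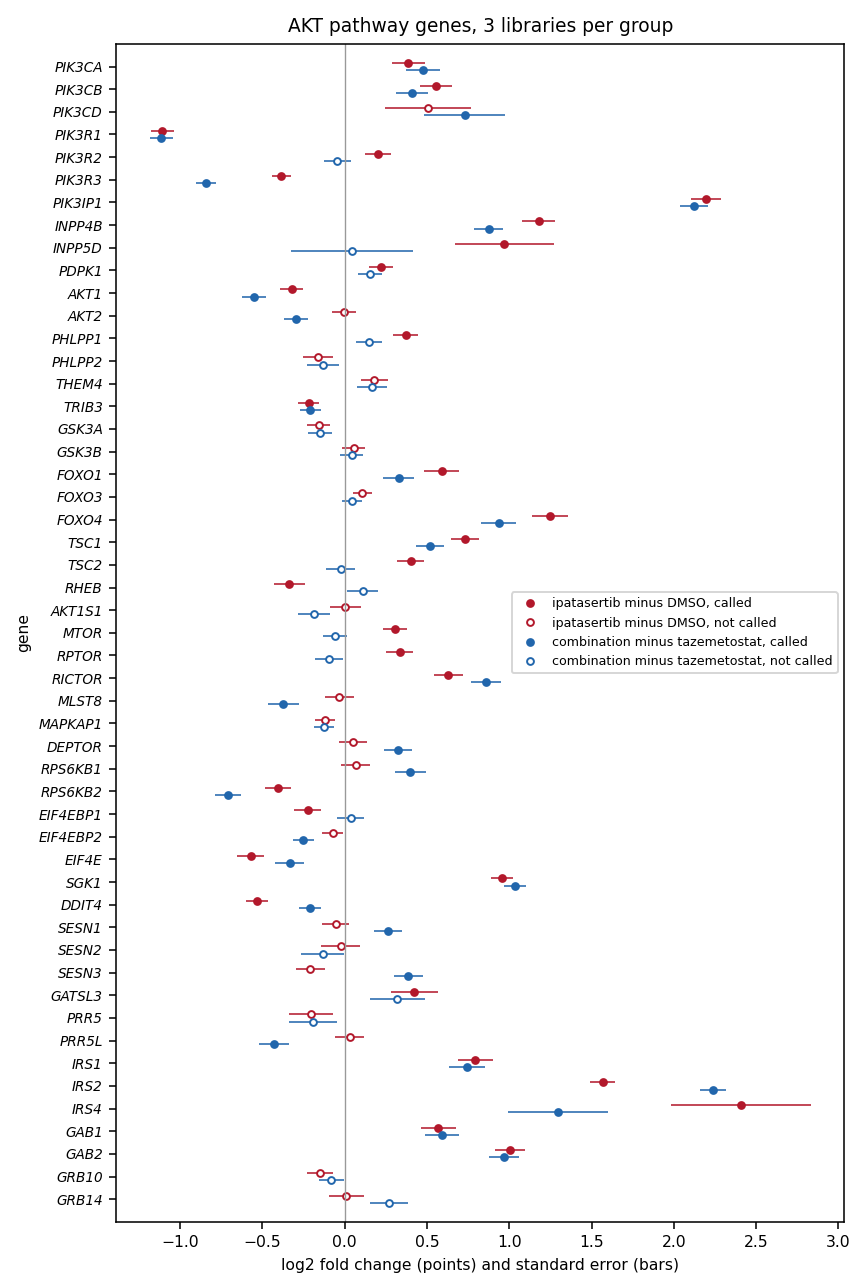
Log2 fold changes (points) with standard errors (bars) of 51 of the 53 tested AKT pathway genes, for ipatasertib minus DMSO (red) and for the combination minus tazemetostat (blue), 3 libraries per group. Filled points passed the threshold. PIK3IP1 lies at 2.20 and 2.13 and PIK3R1 at -1.11 and -1.12.

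Most genes on a list of FOXO targets rose. Of 37 tested FOXO target genes, 24 rose and 4 fell, with a median log2 fold change of 0.659. The list was chosen with earlier results of these data known, so its counts depend on that choice. CDKN1A, the gene of p21 described below, is also named as a FOXO target but is not on this list. It fell by 1.43 ± 0.14. TNFSF10, the death ligand TRAIL, was at 89.6, 80.2 and 88.7 CPM with DMSO and at 274, 285 and 272 CPM with ipatasertib (log2 fold change 1.68 ± 0.07, edgeR adjusted p = 6.8e-14). KLHL24, a ubiquitin ligase adaptor, rose from 35.4 to 37.4 CPM to 80.5 to 93.3 CPM (1.24 ± 0.08, edgeR adjusted p = 1.32e-10). YPEL3 and FBXO32, a growth suppressor and a ubiquitin ligase of muscle wasting, rose with them. GADD45A, a stress gene often named as a FOXO target, went the other way, from 34.8, 34.9 and 35.3 to 19.5, 22 and 20.3 CPM (-0.76 ± 0.08, edgeR adjusted p = 5.26e-08), and EGLN3, which is also induced in hypoxia, fell by 0.55 ± 0.08. Also on the list, MXI1, which antagonises MYC, was at 45.4 to 46.6 CPM with DMSO and 75.3 to 84.7 CPM with ipatasertib. In the 250 bases before the annotated starts, the FOXO letters GTAAACA (either strand) occurred in 2 of 31 list genes with a promoter entry (6.45%) and in 3.13% of the tested genes with one.

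Receptor genes rose next to the adaptors. Of 12 tested ERBB receptors, ligands and regulators, 5 rose and none fell. EGFR was at 1101, 1090 and 1004 CPM with DMSO and at 2629, 2105 and 2038 CPM with ipatasertib (log2 fold change 1.08 ± 0.09, edgeR adjusted p = 1.89e-09), with library A highest. ERBB3, the receptor that docks PI3K directly, rose from 121 to 131 CPM to 214 to 222 CPM, and ERRFI1, a feedback inhibitor of EGFR, rose by 0.72 ± 0.06. Of 40 other receptor tyrosine kinases, 19 rose and 4 fell, with a median log2 fold change of 0.345. INSR, the insulin receptor, was at 50.9, 57.6 and 52.6 CPM and then at 110, 114 and 113 CPM (1.07 ± 0.07, edgeR adjusted p = 2.08e-11). The FGF receptor genes FGFR2 (0.95 ± 0.09) and FGFR3 (1.16 ± 0.14) rose, as did MET (1.10 ± 0.07). The ephrin receptor EPHB2 fell by 0.67 ± 0.09 and ROR1 by 0.40 ± 0.08 on the log2 scale.

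Most genes on a list of ERK output and feedback rose as well: 17 of 27 tested genes were higher and 2 lower, with a median log2 fold change of 0.694. A separate list of immediate early genes moved less: 8 of 23 tested genes were higher and 2 lower, with a median of 0.116. ETV5, an ETS factor induced by ERK, was at 9.29, 8.36 and 8.37 CPM with DMSO and at 37, 30.9 and 34.2 CPM with ipatasertib (log2 fold change 1.97 ± 0.10, edgeR adjusted p = 1.15e-12). DUSP5, a nuclear ERK phosphatase, rose from 16.9 to 17.5 CPM to 43 to 44.4 CPM (1.36 ± 0.08, edgeR adjusted p = 1.21e-11). The feedback inhibitor SPRY4 and the cytokine LIF rose by 1.70 ± 0.12 and 1.21 ± 0.14. DUSP4 fell by 0.24 ± 0.06 and PHLDA2, an imprinted growth inhibitor, by 0.81 ± 0.09 on the log2 scale.

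Among 32 tested targets of YAP-TEAD and SRF, 2 transcription factor systems that respond to adhesion and actin, 17 rose and 4 fell. The YAP targets CTGF, ANKRD1, THBS1 and PTPN14 rose. CTGF, a matricellular protein, was at 23.8, 23.5 and 23.7 CPM with DMSO and at 95.4, 99 and 94.7 CPM with ipatasertib (log2 fold change 2.03 ± 0.07, edgeR adjusted p = 7.26e-15). NT5E, the ectonucleotidase CD73, was at 17.1, 17.6 and 18 CPM and then at 92.2, 84.2 and 76.8 CPM (2.26 ± 0.09, edgeR adjusted p = 1.42e-14). The actin genes went down: ACTB was at 7668, 8658 and 9008 CPM and then at 4234, 4648 and 4735 CPM (-0.90 ± 0.07, edgeR adjusted p = 1.29e-09), and ACTG1 fell by 0.29 ± 0.06. Both actins have close copies in the genome, so their counts are uncertain.

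**Figure D3:**
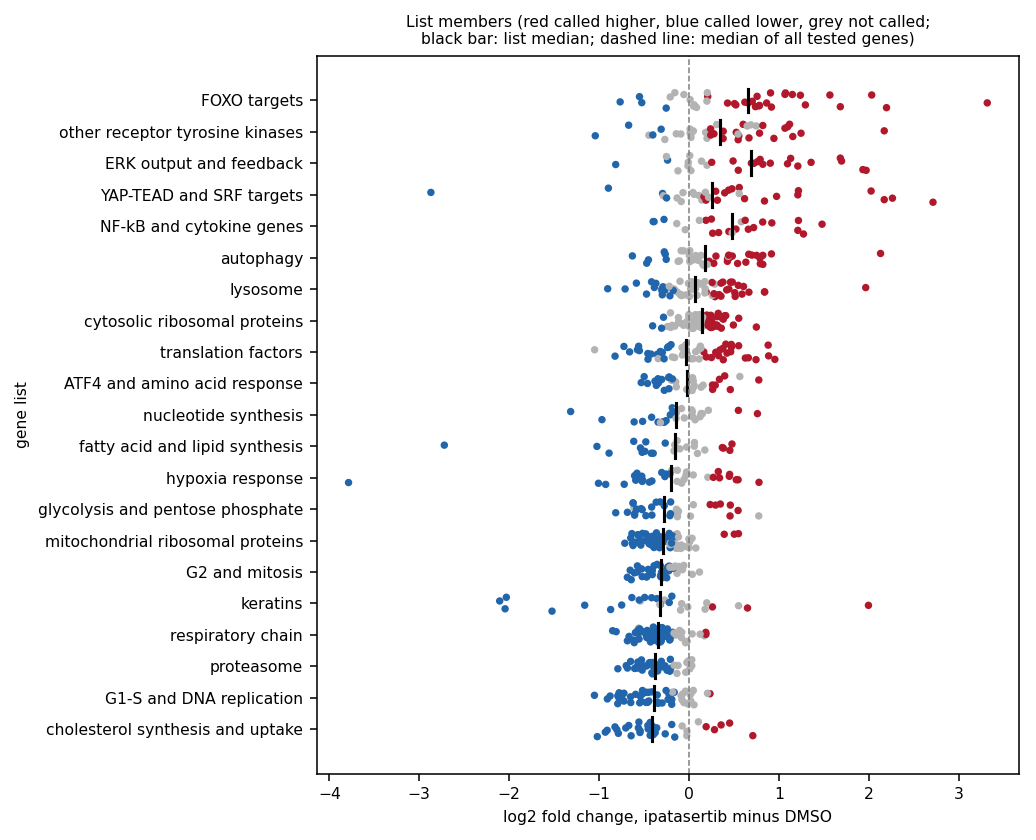
Log2 fold change of ipatasertib minus DMSO for each tested member of 21 gene lists. Red points were called higher, blue points lower and grey points not called, black bars are list medians and the dashed line is the median of all tested genes, 0.004. Medians run from 0.694 (ERK output) to -0.406 (cholesterol synthesis and uptake).

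Genes of lipid synthesis fell. Of 35 tested genes of cholesterol synthesis and uptake, 26 fell and 5 rose, with a median log2 fold change of -0.406. HMGCS1, which makes HMG-CoA at the head of the pathway, was at 959, 896 and 921 CPM with DMSO and at 552, 541 and 518 CPM with ipatasertib (log2 fold change -0.78 ± 0.06, edgeR adjusted p = 1.09e-09). IDI1, an isomerase of the isoprenoid steps, fell by 0.80 ± 0.09, and STARD4, a cholesterol carrier, by 1.02 ± 0.10. The members that rose with the largest change were ABCG1, a cholesterol exporter (0.71 ± 0.11), and INSIG2, which retains the sterol sensor in the endoplasmic reticulum (0.45 ± 0.10). Of 25 genes of fatty acid and lipid synthesis, 11 fell and 4 rose. SCD, the desaturase of oleate synthesis, was at 3433, 3351 and 3513 CPM and then at 1604, 1670 and 1793 CPM. ACLY, which makes cytosolic acetyl-CoA, and ME1, which makes NADPH, fell by 0.61 ± 0.06 and 0.89 ± 0.09 on the log2 scale. ACACA, the rate-limiting carboxylase, rose by 0.46 ± 0.08.

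Genes of glucose use and of the hypoxia response changed in the same libraries. Of 33 genes of glycolysis and the pentose phosphate pathway, 19 fell and 6 rose, with a median of -0.274. ALDOA, an aldolase, was at 1403, 1480 and 1422 CPM with DMSO and at 765, 827 and 857 CPM with ipatasertib (log2 fold change -0.81 ± 0.07, edgeR adjusted p = 2.89e-09). PGK1 fell by 0.62 ± 0.06 and the gene listed as PKM2, which encodes pyruvate kinase, also by 0.62 ± 0.07, whereas PFKFB3, which makes an activator of glycolysis, rose by 0.55 ± 0.08. Of 34 tested hypoxia response genes, 17 fell and 8 rose. CA9, a carbonic anhydrase under HIF control, was at 7.24, 7.54 and 6.45 CPM and then at 0.653, 0.374 and 0.473 CPM (-3.79 ± 0.21, edgeR adjusted p = 4.89e-12), the lowest log2 fold change among the genes named by the rule for falls. The collagen-modifying enzymes LOX (-1.01 ± 0.14), P4HA1 (-0.72 ± 0.08) and P4HA2 (-0.93 ± 0.09) fell with it. The HIF letters ACGTG (either strand) occurred in the 250 bases before a start in 16 of 28 hypoxia genes with a promoter entry (57.1%), against 28.3% of tested genes and 21.7% of all promoters.

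The CA9 promoter is shown because that gene headed the named falls and holds the letters close to its start, at position -18 from the start, on the opposite strand. The 120 bases before the start are chr9:35673808-35673927 (GRCh38.p14, plus strand, from RefSeq), with the HIF letters in capitals:
CA9: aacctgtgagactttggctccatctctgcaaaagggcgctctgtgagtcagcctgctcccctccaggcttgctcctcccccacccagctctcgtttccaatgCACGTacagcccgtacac

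Genes of nucleotide synthesis and of DNA replication fell. Of 29 nucleotide synthesis genes, 13 fell and 2 rose. RRM2, the subunit of ribonucleotide reductase that limits dNTP supply, was at 402, 387 and 393 CPM with DMSO and at 164, 158 and 152 CPM with ipatasertib, and CTPS, which makes CTP, fell by 0.61 ± 0.06. CAD, the enzyme that opens pyrimidine synthesis, rose by 0.76 ± 0.08. Of 50 genes of the G1-S transition and of DNA replication, 36 fell and 1 rose, with a median log2 fold change of -0.383. CCNE2, a cyclin E that drives entry into S phase, was at 44.2, 40.6 and 42.6 CPM and then at 19.3, 22.5 and 19.9 CPM (-1.05 ± 0.11, edgeR adjusted p = 6.05e-08). CDC6, which loads the MCM helicase at origins, was at 82.9, 84.5 and 80.9 CPM and then at 44.7, 43.2 and 44.4 CPM (-0.91 ± 0.07, edgeR adjusted p = 5.03e-10). E2F1, the transcription factor of the set, was at 82.9, 86.1 and 86.5 CPM and then at 46.4, 47.5 and 53.6 CPM (-0.79 ± 0.09, edgeR adjusted p = 2.39e-07). The member that rose was CDT1, a partner of CDC6 (0.23 ± 0.09, edgeR adjusted p = 0.036), a call that was lost in 6 of 20 other settings.

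Genes of G2 and mitosis fell too, by smaller amounts: 35 of 44 tested genes were lower and none higher, with a median log2 fold change of -0.308. CDK1, the mitotic kinase, was at 238, 243 and 257 CPM with DMSO and at 148, 163 and 148 CPM with ipatasertib (log2 fold change -0.68 ± 0.08, edgeR adjusted p = 8.62e-07). CENPE, a kinetochore motor, was at 90.3, 93.5 and 95.7 CPM and then at 56.5, 63.5 and 59.3 CPM (-0.64 ± 0.10, edgeR adjusted p = 1.56e-05). SMC4, a condensin subunit, was at 448, 489 and 493 CPM and then at 298, 360 and 303 CPM (-0.57 ± 0.10, edgeR adjusted p = 0.000108). CCNA2 (-0.65 ± 0.07), MAD2L1 of the spindle checkpoint (-0.61 ± 0.09) and the kinase gene AURKA (-0.57 ± 0.06) fell as well.

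With tazemetostat in the background, the same addition of ipatasertib gave another picture for mitosis. The combination against tazemetostat shares no library with ipatasertib against DMSO and called 46.3% of tested genes, 23.2% higher and 23.1% lower. In that comparison 42 of the 50 G1-S and replication genes fell and none rose, with a median of -0.51, and 34 fell in both. Of the 44 G2 and mitosis genes, 4 fell and 8 rose, with a median of 0.036, and 3 fell in both. Over all 14571 tested genes, 1980 fell in both. The difference of the 2 effects was itself called for 25 of the 44 genes, all toward a higher value with tazemetostat, against 5.96% of all tested genes called in that direction. For CDK1 the log2 fold change was -0.12 ± 0.08 with tazemetostat (157 to 191 CPM with tazemetostat alone, 137 to 174 CPM with the combination), a difference of 0.57 ± 0.12 from the effect without it (edgeR adjusted p = 0.00539). CENPE was at 69.1 to 73.7 CPM with tazemetostat and 65.9 to 99.4 CPM with the combination, a difference of 0.83 ± 0.14 (edgeR adjusted p = 0.00115). E2F1 in contrast was at 54.5 to 67.2 CPM and 21.5 to 28 CPM, a log2 fold change of -1.31 ± 0.10, and its difference was -0.52 ± 0.13 (edgeR adjusted p = 0.0148). Tazemetostat alone already lowered CDK1 (log2 fold change against DMSO -0.52 ± 0.08), CENPE (-0.40 ± 0.10) and E2F1 (-0.48 ± 0.09). SMC4 (-0.61), MAD2L1 (-0.72), AURKA (-0.37) and CCNA2 (-0.36) were called lower by it as well. For CDK1 the higher difference was no return to the vehicle level. Its mean was 246 CPM in DMSO libraries and 158 CPM in combination libraries. The part of this lower start in the differences was not tested. Leaving out any 1 library left 17 to 32 mitosis genes with a called higher difference and 30 to 35 called lower without tazemetostat. The 8 that rose with tazemetostat became 14 without tazemetostat library A or without combination library A and 22 without library A of every group, and the 4 that fell became 7 without combination library C and 8 without every library A.

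Among the G1-S genes the difference was called for 20 of 50, 17 of them lower with tazemetostat, against 6.01% of all tested genes. That number of 17 was 9 without tazemetostat library B or combination library B, 10 without DMSO library C, and 11 without ipatasertib library C or tazemetostat library C. DBF4, the activator of the replication kinase CDC7, was among those that were higher (0.65), with log2 fold changes of -0.88 ± 0.10 without tazemetostat and -0.23 ± 0.10 with it.

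**Figure D4:**
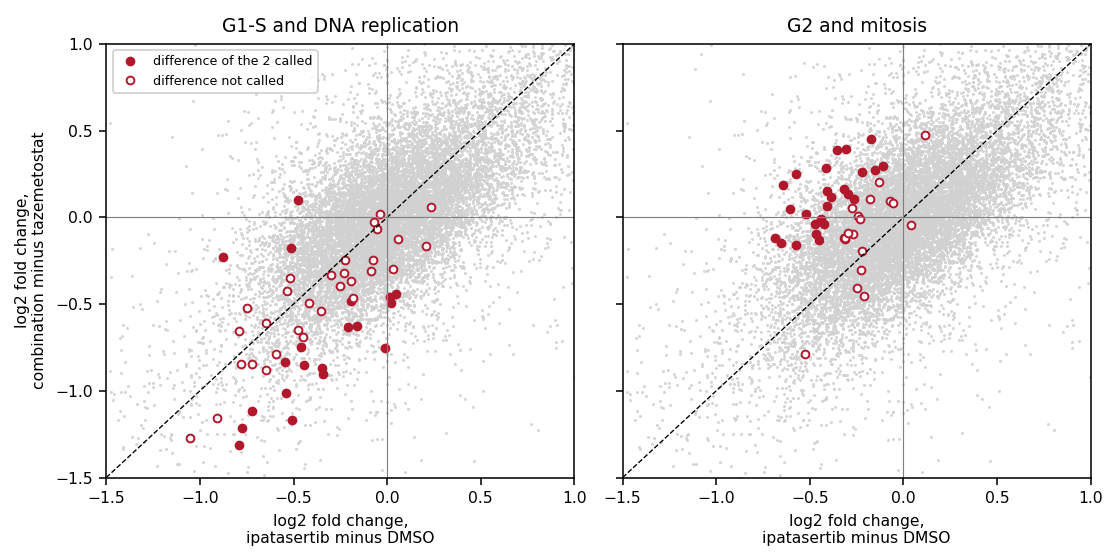
Log2 fold change of the combination minus tazemetostat (vertical) against that of ipatasertib minus DMSO (horizontal), for genes of G1-S and replication (left, 50 genes) and of G2 and mitosis (right, 44 genes), over all tested genes in grey. Filled points have a called difference between both effects, the dashed line marks equal effects, and the axes cover -1.5 to 1 in both directions. Most mitosis genes lie left of 0 and scatter around 0 on the vertical axis (median 0.036), and most G1-S genes lie below 0 on both.

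The 2 lists differ in promoter letters as well. These shares were counted over all tested members with a promoter entry, called or not. They describe the lists and would be the same whatever the drug did. The letters TTTGGCGC or GCGCCAAA, of the type bound by E2F factors, occurred in the 250 bases before a start in 8 of 43 G1-S genes with a promoter entry (18.6%), 1 of 37 mitosis genes (2.7%) and 1.14% of tested genes. The letters TTTGAA or TTCAAA, those of the CHR element known from mitotic genes, occurred in 21 of 37 mitosis genes (56.8%), 1 of 43 G1-S genes (2.33%) and 12.3% of tested genes, or 16.1% of all promoters. These 2 motifs were chosen after values had been seen, and a match describes letters, not binding. The promoters below belong to 2 genes of each set among those named above or by the rule, and each line holds the 120 bases before the start on the strand of the gene, from RefSeq on GRCh38.p14, with the matched letters in capitals. E2F1 (chr20:33686386-33686505, minus strand) and TIPIN (chr15:66356686-66356805, minus strand), a fork protection gene that fell by 0.78 ± 0.10 on the log2 scale, carry the E2F letters, which overlap on both strands in TIPIN. CDK1 (chr10:60778358-60778477, plus strand) carries the CHR letters at 2 places, and SMC4 (chr3:160399530-160399649, plus strand) at 1.
E2F1: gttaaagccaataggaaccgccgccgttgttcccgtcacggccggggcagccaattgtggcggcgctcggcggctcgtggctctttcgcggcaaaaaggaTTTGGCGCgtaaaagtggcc
TIPIN: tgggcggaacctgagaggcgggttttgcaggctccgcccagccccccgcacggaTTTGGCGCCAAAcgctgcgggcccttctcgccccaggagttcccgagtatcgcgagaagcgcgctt
CDK1: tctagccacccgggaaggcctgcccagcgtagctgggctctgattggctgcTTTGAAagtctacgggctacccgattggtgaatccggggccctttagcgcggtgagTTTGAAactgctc
SMC4: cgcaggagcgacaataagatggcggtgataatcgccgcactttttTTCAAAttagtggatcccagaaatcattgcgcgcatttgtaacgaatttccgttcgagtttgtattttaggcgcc

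Inhibitors of the cell cycle did not follow 1 direction. CDKN1A, the CDK inhibitor p21, was at 18.4, 18.9 and 16.9 CPM with DMSO and at 6.4, 4.8 and 8.6 CPM with ipatasertib (log2 fold change -1.43 ± 0.14, edgeR adjusted p = 3.46e-08), and CDKN2D, the CDK4 and CDK6 inhibitor p19, fell by 0.78 ± 0.08. CCNG2, an atypical cyclin linked to arrest, rose by 0.70 ± 0.08, and RBL2, the pocket protein p130 of resting cells, by 0.51 ± 0.07. In this list of 16 tested genes 5 rose and 5 fell, and the 5 that rose became 3 without DMSO library A, DMSO library B or ipatasertib library B.

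Genes of the respiratory chain, of mitochondrial ribosomes and of the proteasome fell by small amounts and in large numbers. Of 77 tested respiratory chain genes, 62 fell and 2 rose, with a median log2 fold change of -0.347. COX7B, a subunit of cytochrome oxidase, was at 245, 271 and 272 CPM with DMSO and at 143, 174 and 173 CPM with ipatasertib (log2 fold change -0.68 ± 0.08, edgeR adjusted p = 3.4e-07), and ATP5G1, of the ATP synthase ring, fell by 0.81 ± 0.08. The 2 that rose were the complex I genes NDUFV1 (0.19 ± 0.08) and NDUFA10 (0.19 ± 0.07), calls lost in 8 and 5 of 20 other settings. Of 74 mitochondrial ribosomal protein genes, 50 fell and 3 rose, with a median of -0.289. MRPL50 was at 54.6, 54.4 and 55.1 CPM and then at 29.5, 36.4 and 34.3 CPM (-0.71 ± 0.08, edgeR adjusted p = 4.26e-07), while MRPL45 (0.55 ± 0.07) and MRPL10 (0.50 ± 0.07) rose. Of 45 proteasome genes, 35 fell and none rose, with a median of -0.382. PSMD14, the deubiquitinase of the proteasome lid, was at 219, 218 and 218 CPM and then at 119, 133 and 127 CPM (-0.79 ± 0.07, edgeR adjusted p = 1.42e-08), and PSMA3, of the core ring, fell by 0.70 ± 0.09.

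Cytosolic ribosomal protein genes went the other way. Of 82 tested, 38 rose and 3 fell, with a median log2 fold change of 0.146. RPL3 was at 1347, 1322 and 1321 CPM with DMSO and at 2150, 2220 and 2342 CPM with ipatasertib (log2 fold change 0.75 ± 0.06, edgeR adjusted p = 4.61e-09), and RPL10A rose from 526 to 553 CPM to 776 to 802 CPM. RPS10 (-0.40 ± 0.13) and RPS26 (-0.30 ± 0.10) were among the 3 that fell, calls lost in 3 and 2 of 20 other settings. The count of 3 was 1 without DMSO library C, 5 without DMSO library A and 6 without ipatasertib library C. The count of 38 depended on single libraries: it was 21 without DMSO library A, 20 without ipatasertib library B and 19 without ipatasertib library C, and these genes have many close copies, so their counts are uncertain. In the comparison with tazemetostat in both groups, 58 of the 82 rose and 3 fell, against 23.2% and 23.1% of tested genes. Of 57 translation factors, 20 rose and 18 fell. EIF4B, a helicase cofactor, was at 397, 382 and 396 CPM and then at 804, 735 and 739 CPM (0.96 ± 0.06, edgeR adjusted p = 4.46e-11), and EEF2, the translocase of elongation, rose from 1963 to 2021 CPM to 3630 to 3729 CPM. EIF5A fell by 0.72 ± 0.08. Of 36 ribosome biogenesis genes 17 fell, for example LYAR, a nucleolar factor (-0.87 ± 0.09), and 4 rose, the largest rise being that of NOB1, a nuclease of 18S rRNA maturation (0.85 ± 0.07).

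Transcript length moved with the fold changes over the transcriptome. Among the 13221 tested genes with a length (90.7%, median length of their protein-coding transcripts in GENCODE), the median log2 fold change was -0.056 in the shortest and 0.109 in the longest of 5 equal length classes. In these classes 29.7% and 15.4% of genes were called lower. The median lengths were 708 bases for respiratory chain genes, 1050 for mitochondrial ribosomal proteins, 1085 for the proteasome and 689 for cytosolic ribosomal proteins. The medians of the first 3 lists, between -0.289 and -0.382, lie below that of the shortest class, and that of the cytosolic ribosomal proteins, 0.146, lies above it. The part of length in these results was not tested beyond these values.

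**Figure D5:**
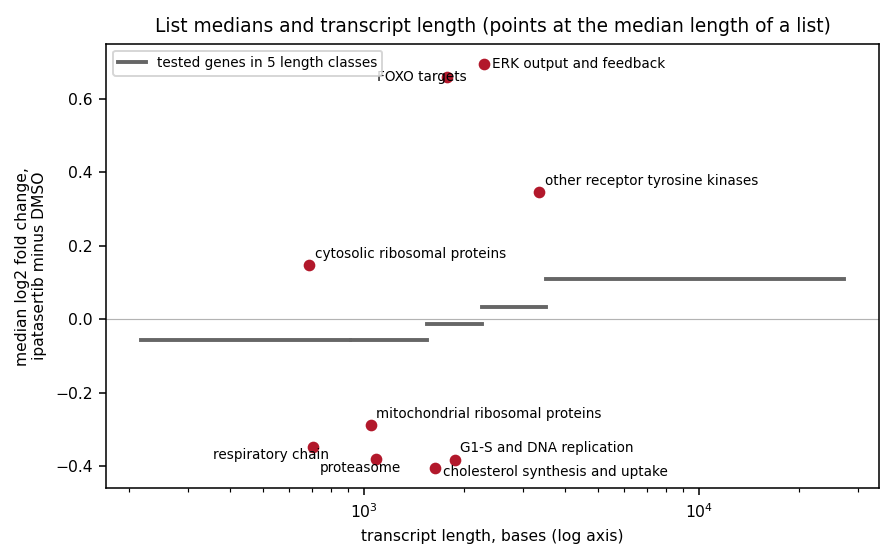
Median log2 fold change of ipatasertib minus DMSO for 9 gene lists (red points, at the median transcript length of the list) and for all tested genes with a length in 5 equal classes (grey bars spanning each class), with length in bases on a log axis. The classes run from -0.056 to 0.109 and the lists from -0.406 to 0.694.

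Lysosome and autophagy genes were mixed. Of 62 lysosome genes, 21 rose and 14 fell, with a median log2 fold change of 0.073. CTSF, a cysteine protease, was at 27.9, 26.3 and 26 CPM with DMSO and at 108, 100 and 106 CPM with ipatasertib, and GPNMB, a glycoprotein of lysosomes and melanosomes, rose by 0.84 ± 0.06. CTSC, an activator of serine proteases, fell by 0.71 ± 0.07. Of 42 autophagy genes, 19 rose and 6 fell. C10orf10, the FOXO-regulated gene also called DEPP, was at 8.12, 7.81 and 8.56 CPM and then at 32.4, 36.2 and 38.9 CPM (2.13 ± 0.11, edgeR adjusted p = 1.29e-12). GABARAPL1, a protein of autophagosome membranes, rose by 0.92 ± 0.08 and the cargo receptor NBR1 by 0.79 ± 0.06, while ATG4A, a processing protease, fell by 0.63 ± 0.08.

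Genes of epithelial differentiation mostly fell. Of 27 tested keratin genes, 15 fell and 3 rose, with a median log2 fold change of -0.323. KRT19, a simple epithelial keratin, was at 2598, 2782 and 2739 CPM with DMSO and at 1372, 1518 and 1550 CPM with ipatasertib (log2 fold change -0.87 ± 0.07, edgeR adjusted p = 8.37e-10). KRT10, of suprabasal cells, fell by 1.16 ± 0.08, KRT38 by 2.04 ± 0.16 and KRT5, of basal cells, by 0.55 ± 0.07 on the log2 scale. Of 14 S100A genes 8 fell and 1 rose. S100A8 was at 32.3, 40.1 and 36.9 CPM and then at 4.53, 6.73 and 6.43 CPM, and its partner in calprotectin, S100A9, fell by 0.84 ± 0.09. Of 8 tested kallikreins, serine proteases encoded in 1 cluster, 5 fell, among them KLK6 from 152 to 164 CPM to 67.7 to 72.4 CPM (-1.18 ± 0.07, edgeR adjusted p = 1.78e-11), and 1 rose. In the PSG and CEACAM list, pregnancy-specific glycoproteins and related adhesion molecules, 9 of 13 tested genes rose and 2 fell. PSG5 was at 1.21, 1.86 and 1.41 CPM and then at 19.6, 17.8 and 18.4 CPM, and PSG9 at 2.91 to 3.52 CPM and then at 16 to 16.8 CPM. CEACAM6 fell by 0.36 ± 0.12, a call lost in 2 of 20 other settings. Keratin, S100A, kallikrein and PSG genes have close copies, so counts of single members are uncertain.

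Other genes with large changes were FGF1, a growth factor, at 0.519 to 0.958 CPM with DMSO and 4.81 to 6.78 CPM with ipatasertib (log2 fold change 3.01 ± 0.20, edgeR adjusted p = 1.04e-10), and ABTB1, at 2.63 to 2.91 CPM and 18.9 to 24.1 CPM (2.96 ± 0.12, edgeR adjusted p = 2.49e-14). CLCA2, a p53-regulated membrane protein of epithelia, was at 20.2 to 21.2 CPM and 2.7 to 2.99 CPM (-2.84 ± 0.12, edgeR adjusted p = 7.25e-14), and STAC2 fell by 2.21 ± 0.12.

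Set beside the independent comparison in tazemetostat-treated cells, 4093 of the 6864 genes called with ipatasertib alone (59.6%) were called in the same direction there, which is 60.7% of the 6747 calls with tazemetostat. Calls in opposite directions numbered 115. Over all 14571 tested genes, 2113 were called higher in both comparisons and 1980 lower in both. Among the 479 called rises that at least doubled the level, 393 were also called higher with tazemetostat, and among the 209 falls of that size 173 were also called lower. The difference between both effects was called for 1744 genes (12%), a number that rests on single libraries. It was 674 to 1036 without combination library B, DMSO library C, tazemetostat library B, tazemetostat library C, DMSO library B, ipatasertib library A or ipatasertib library C. It was 3231 without combination library A, 3681 without tazemetostat library A and 5452 without library A of every group.

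Among genes whose effect changed sign with both effects called, SC5DL, which encodes a desaturase of late cholesterol synthesis, was at 342, 372 and 356 CPM with DMSO and at 268, 282 and 259 CPM with ipatasertib (log2 fold change -0.41 ± 0.08). It had a mean of 419 CPM with tazemetostat and 732 CPM with the combination (0.81 ± 0.08), and the difference was 1.21 ± 0.12 (edgeR adjusted p = 4.01e-06). SPTSSA, a small subunit of serine palmitoyltransferase, had log2 fold changes of -0.59 ± 0.10 without and 0.55 ± 0.10 with tazemetostat. The remaining genes of that rule were DIRC3 (-0.86 and 0.48), ATP2A3, a calcium pump (0.36 and -0.85), NEU3, a sialidase (0.59 and -0.38), and IL17RE, an interleukin receptor (0.32 and -0.65). For ipatasertib against DMSO, the calls of ATP2A3 and IL17RE were lost in 3 and 2 of 20 other settings.

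Ipatasertib was also compared directly with tazemetostat, the drugs having been given for 24 h and from day -5, so that drug and duration cannot be told apart. In this comparison 48.3% of tested genes were called. IRS2 was higher with ipatasertib (log2 fold change 1.57 ± 0.08, edgeR adjusted p = 1.75e-13), as were EIF4B (1.13 ± 0.06, edgeR adjusted p = 7.26e-13), CTGF (1.90 ± 0.07, edgeR adjusted p = 2.75e-15) and PIK3IP1 (0.93 ± 0.08, edgeR adjusted p = 5.37e-09). KRT5, lower than with DMSO in the ipatasertib libraries, was higher there than in the tazemetostat libraries (0.20 ± 0.07, edgeR adjusted p = 0.0203). CDK1 had a log2 fold change of -0.16 ± 0.08 between the drugs (edgeR adjusted p = 0.117).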

How the data were processed

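Counts of reads per gene symbol, deposited by the authors for each library, were used as they stand. HTSeq, STAR, DESeq2, SAMtools and build hg19 appear in the submitters' processing notes. Versions, strand setting and annotation: not given in the sources used here. Genes that overlap or have an antisense partner are therefore uncertain. Lines that name no gene stayed out of library sizes and tests (reads outside any gene alone were 18.25% to 24.27% in the 6 libraries). In R 4.3.3 and edgeR 4.0.16, genes passing filterByExpr (minimum count 10; 14571 of 23228) were fitted once over 12 libraries with TMM factors, group means as coefficients (residual df 8), and tested with robust quasi-likelihood F-tests, adjusted over all genes at 0.05. SE is the log2 fold change divided by the root of F. The procedure was tested on simulated data.

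The members, lists and motifs were chosen with earlier results of these data known. Named genes are the 10 largest rises and falls (at least 5 CPM, no overlap), AKT pathway members, up to 6 largest calls per list plus 2 against its direction, and 6 sign changes; part is printed. Other settings tried were DESeq2 1.42.0, RLE factors, library totals, 2 other filters, only 6 libraries, the library letter as a block and libraries left out. Promoters matched 11251 tested genes. Floors cover counting error only. A few items are not reported here.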

Additional observations from a re-analysis of the deposited data

Results flagged for a closer look

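The effect of ipatasertib differed between cells without and with tazemetostat, by a test of the difference itself, for 1744 genes, and among them for 25 of 44 genes of G2 and mitosis. Higher and lower refer here to the sign of the difference, not to the size of the effect. A higher effect is a larger rise, a smaller fall or a turn from fall to rise, and a lower effect is the reverse. Thus the fall of CDK1 was smaller with tazemetostat and that of E2F1 was larger. Both genes started from a lower level with tazemetostat than with DMSO. Of the genes named in the report, those with a higher effect in the presence of tazemetostat were, with the log2 difference of both effects, DIRC3 (1.34), SC5DL (1.21), SPTSSA (1.14), ANKRD1 (0.92), CENPE (0.83), SMC4 (0.82), STARD4 (0.72), IRS2 (0.67), MAD2L1 (0.66), DBF4 (0.65), PSG9 (0.62), SESN3 (0.60), CDK1 (0.57), IDI1 (0.52), CCNA2 (0.51), DKK1 (0.48), GADD45A (0.47), LYAR (0.47), RHEB (0.45), ROR1 (0.45), NT5E (0.43), AURKA (0.42), PSMA3 (0.40), MRPL50 (0.39), THBS1 (0.37), CDKN2D (0.37), MET (0.35), HMGCS1 (0.35), CTGF (0.33) and DDIT4 (0.32). Those with a lower effect in its presence were ATP2A3 (-1.21), CEACAM6 (-1.04), NEU3 (-0.98), IL17RE (-0.97), FGF1 (-0.96), CAD (-0.78), SPRY4 (-0.76), CLCA2 (-0.72), KRT5 (-0.65), ABTB1 (-0.62), CTSF (-0.55), E2F1 (-0.52), S100A9 (-0.51), CTPS (-0.49), EPHB2 (-0.48), PIK3R3 (-0.46), PRR5L (-0.46), TSC2 (-0.43), RPTOR (-0.43), NDUFV1 (-0.40), MTOR (-0.36), FBXO32 (-0.34) and RPL3 (-0.31). The count of 1744 changed with single libraries in both directions, and the values without them stand beside it in the report.

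Reads assigned to no gene, which enter no comparison of genes, were 3.4 percentage points more frequent with ipatasertib than with DMSO, with every ipatasertib library (22.26% to 24.27%) above every DMSO library (18.25% to 21%).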

How the results depend on the processing

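The number of genes called for ipatasertib against DMSO stayed between 5737 and 7711 over all other fits, against 6864, and no named gene that was called changed direction. Of 295 called named genes, 25 lost the call under at least 1 setting, 13 of them outside the fits that leave out a single library. Among called genes 50.9% were higher, and 57.9% with library totals in place of TMM factors, which moved the median of all genes to 0.047. With the replicate letter as a block, the calls were 6345 for ipatasertib against DMSO, 6226 for the combination against tazemetostat and 6515 for ipatasertib against tazemetostat; the differences between both ipatasertib effects numbered 1012 with the block and 1744 without. The labels do not say that a letter pairs libraries, and the correlations of same-letter deviations were mixed. Between DMSO and ipatasertib they were 0.03 to 0.138 over all tested genes, where 3 of 3 letters matched their own best. Over 10980 genes of at least 5 CPM the correlations were 0.115 to 0.412, and 1 of 3 letters matched its own best. Between tazemetostat and the combination they were -0.612 to -0.344 over the latter genes. Without library A of every group the called differences between both ipatasertib effects numbered 5452. Leaving out 1 library at a time gave 5737 to 6400 calls for ipatasertib against DMSO, 5739 to 7103 for the combination against tazemetostat, 6259 to 6894 for ipatasertib against tazemetostat, 674 to 3681 for the difference, and 2.6 to 3.97 percentage points for the share of reads outside genes. The cause of these shifts was not tested. At this depth 3 counts are 0.106 to 0.16 CPM in the DMSO and ipatasertib libraries and 0.112 to 0.157 CPM in the tazemetostat libraries. The combination libraries were shallower, with 12981622 to 17948209 reads in genes, where 3 counts are 0.166 to 0.228 CPM. Genes at low levels were thus compared with little precision, and 3 libraries per group limit all tests.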

Other observations

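Several signalling and stress groups not described above moved with ipatasertib. Of 23 tested NF-kB and cytokine genes, 15 rose and 3 fell (median log2 fold change 0.481), against 24% and 23.1% of all tested genes. The acute phase gene SAA1 was at 9.93, 9.63 and 8.82 CPM with DMSO and at 18.5, 25.3 and 25 CPM with ipatasertib, and the adhesion molecule ICAM1 and the siderophore-binding protein LCN2 rose by 0.92 ± 0.08 and 0.72 ± 0.08 on the log2 scale, while the inhibitor NFKBIB fell by 0.39 ± 0.09. Of 32 Wnt ligands, receptors and antagonists, 15 rose and 3 fell. The receptor FZD5 was at 18.6, 18 and 18.3 CPM and then at 48.6, 48.9 and 48.6 CPM, and the antagonist DKK1 rose from 26.7 to 30.8 CPM to 63 to 75.6 CPM.

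Of 35 tested TGF-beta, BMP and activin genes, 16 rose and 5 fell. The ligand BMP4 (1.08 ± 0.10) and the transducer SMAD3 (0.93 ± 0.07) rose on the log2 scale, while ID1 (-0.98 ± 0.11) and ID2 (-1.31 ± 0.12), which BMP signals induce in many cells, fell. Of 33 heat shock and chaperone genes, 16 fell and 4 rose. The small heat shock protein gene HSPB1 was at 356, 414 and 384 CPM and then at 169, 197 and 207 CPM, the endoplasmic reticulum chaperones CALR and HSPA5 fell by 0.61 ± 0.06 and 0.58 ± 0.07, and the constitutive cytosolic chaperone HSPA8 rose by 0.55 ± 0.08.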
